A study of Mus musculus with 11 samples.

Results

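Deubiquitinating enzymes were examined in 11 mouse skin tumours, leaving out Bap1 itself. Members were chosen by gene symbol alone: the Usp, Otud, Otub, Uchl and Josd genes, together with Cyld, Brcc3, Stambp, Stambpl1, Psmd14, Tnfaip3, Zranb1 and Vcpip1. Of 68 matching genes, Usp7 and Usp16 were left out by the rule, which left 66 of the 18756 genes in the count table. They comprise 44 ubiquitin-specific proteases (the USP family, with Cyld), 12 ovarian tumour proteases (OTU), 4 ubiquitin C-terminal hydrolases (UCH), 2 Josephin proteases and 4 JAMM metalloproteases. Atxn3 was not analysed here.

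Ubiquitin is a small protein that is joined to other proteins, singly or in chains, and the shape of the chain marks the target for the proteasome, for sorting in endosomes, for signalling or for repair of DNA. Deubiquitinating enzymes cut it off again: the USP, OTU, UCH and Josephin families are cysteine proteases, and the JAMM family uses zinc. In pigment cells and melanoma they are studied for their action on the stability of lineage factors, on receptor sorting and on NF-kB signalling.

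Gene expression was measured by RNA sequencing of tumours taken at end-point from genetically engineered C57BL/6 mice that model melanoma. There were 5 libraries of GNA11 Q209L Bap1 KO, 4 of BRAF V600E Bap1 KO and 2 of GNA11 Q209L. GNA11 Q209L is an activating change of a G protein alpha subunit known from uveal melanoma, BRAF V600E is the common activating kinase change of cutaneous melanoma, and Bap1 KO marks loss of a nuclear deubiquitinase that is a tumour suppressor. Total counts ran from 18338082 to 69712229 in GNA11 Q209L Bap1 KO, from 21539584 to 81035135 in BRAF V600E Bap1 KO, and were 42180280 and 25792449 in GNA11 Q209L. The sources used here name no promoter or cell type driving recombination, no sex, age, litter or batch. They do not say that libraries came from separate animals, and the titles of GNA11 Q209L Bap1 KO replicates 1 and 2 share an identifier, so p-values measure the spread between these samples.

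Some libraries stood apart or went against a label. The opening header of the count table gives BAP1 F/F for all 9 knockout libraries, while its closing header gives NA for BRAF V600E Bap1 KO replicates 2 and 4, so results that rest on them are also given without them. The gene-level count of Bap1 was 102 to 170 CPM (counts scaled to library size, with trimmed-mean-of-M-values factors) in GNA11 Q209L Bap1 KO tumours, 54.7 to 71.3 CPM in BRAF V600E Bap1 KO tumours, and 85.1 and 137 CPM in GNA11 Q209L tumours. It does not check the labels, since the sources used here do not name the exons removed. The 10 melanocyte markers summed to between 77533 and 101030 CPM in GNA11 Q209L Bap1 KO tumours, to between 51.0 and 656 CPM in BRAF V600E Bap1 KO tumours, and to 68824 and 67484 CPM in GNA11 Q209L tumours. The melanocyte factor Sox10 stood at 1.93, 3.58, 533 and 232 CPM in the 4 BRAF V600E Bap1 KO libraries, against 812 to 2103 CPM in GNA11 Q209L Bap1 KO tumours. BRAF V600E Bap1 KO replicate 4 held salivary gland markers (174780 CPM summed over 7) and muscle markers (6784 CPM over 10), and replicates 3 and 4 held keratinocyte markers (13240 and 4428 CPM over 10). GNA11 Q209L Bap1 KO replicate 1 had 1623 CPM of keratinocyte markers, against 4.63 to 10.8 CPM in the other 4 libraries of its genotype.

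The 66 genes together took 0.267 to 0.353% of the counts in GNA11 Q209L Bap1 KO, 0.328 to 0.455% in BRAF V600E Bap1 KO, and 0.252 and 0.266% in GNA11 Q209L. Per kilobase of exon, Usp5, which takes apart unanchored ubiquitin chains, had the highest mean level in GNA11 Q209L Bap1 KO (62.4 CPM per kb) and in GNA11 Q209L (52.9 CPM per kb). For BRAF V600E Bap1 KO tumours the level was 26.7 CPM per kb, just under Otub1 at 27.9 CPM per kb. Otub1, which also blocks ubiquitin transfer by binding E2 enzymes, had mean levels of 55.9 CPM per kb in GNA11 Q209L Bap1 KO tumours and 43.3 CPM per kb in GNA11 Q209L tumours. Josd2, a small Josephin protease, came next in both genotypes with GNA11 Q209L, at 44.9 CPM per kb in GNA11 Q209L Bap1 KO tumours and 29.9 CPM per kb in GNA11 Q209L tumours.

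Usp50 had the lowest level per kilobase in both knockout genotypes and the second lowest, after Otud7a, in GNA11 Q209L, with 0 to 4 counts in GNA11 Q209L Bap1 KO, 7 to 13 in BRAF V600E Bap1 KO, and 2 and 1 in GNA11 Q209L. It was the only member that did not pass the filter on low counts, which left 65 tested. Uchl4 is a near-identical copy of Uchl3, so its 6 to 31 counts per library are uncertain. Within a genotype the members varied less than genes at large: the median SD of log2 CPM over members and over all 17350 genes tested was 0.34 and 0.51 in GNA11 Q209L Bap1 KO, 0.44 and 0.63 in BRAF V600E Bap1 KO, and 0.38 and 0.47 in GNA11 Q209L. Among genes whose average log2 CPM was 2 or more the gap was smaller, with medians of 0.33 and 0.44 in GNA11 Q209L Bap1 KO, 0.43 and 0.51 in BRAF V600E Bap1 KO, and 0.38 and 0.42 in GNA11 Q209L. These SDs are a description and were not tested.

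**Figure D1:**
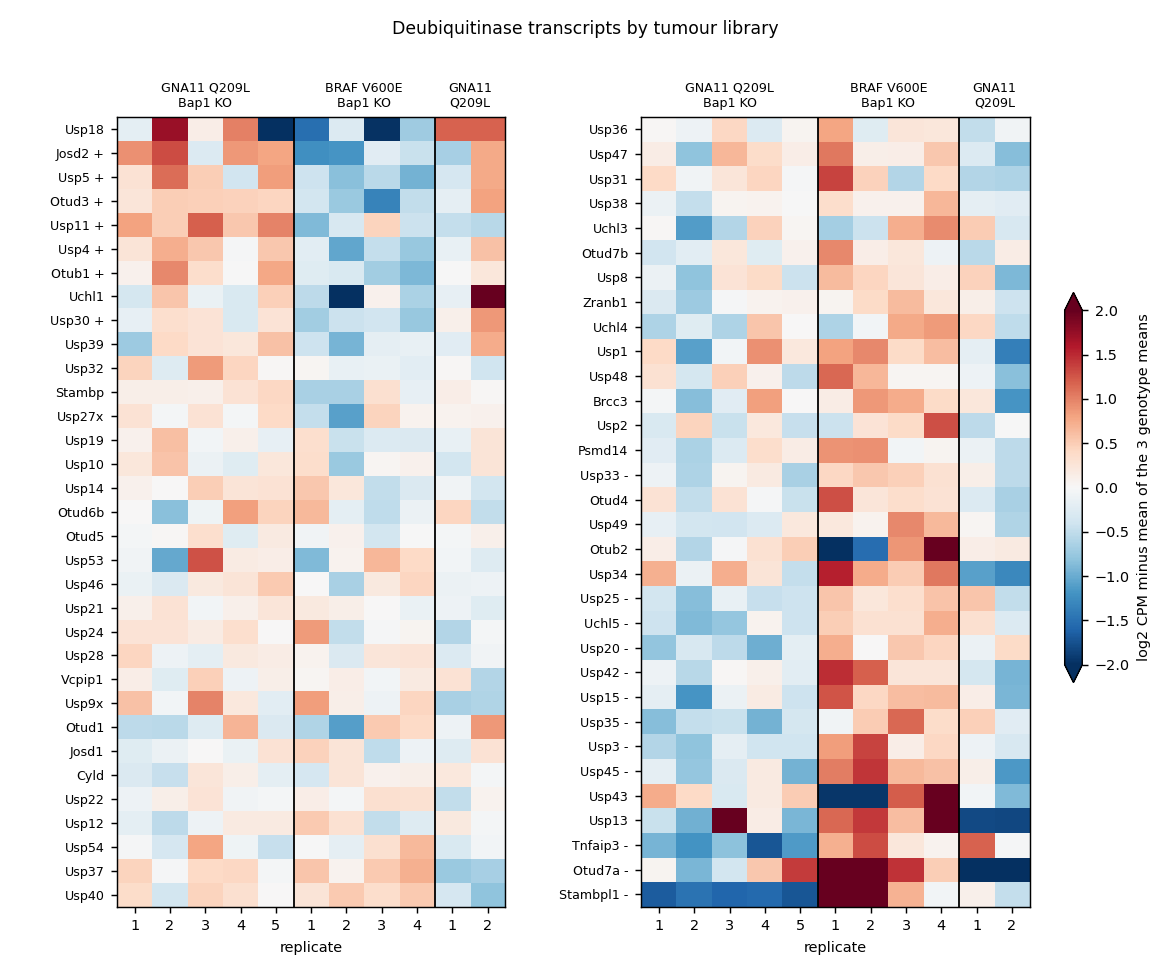
Each row is 1 of 65 deubiquitinase genes and each column 1 library, grouped as GNA11 Q209L Bap1 KO (5), BRAF V600E Bap1 KO (4) and GNA11 Q209L (2); colour is log2 CPM minus the mean of the 3 genotype means, cut at 2 either way. Rows run from the highest to the lowest fold change of GNA11 Q209L Bap1 KO over BRAF V600E Bap1 KO, and + or - after a name marks the 7 genes called higher and the 12 called lower; Stambpl1 is blue in all 5 GNA11 Q209L Bap1 KO libraries and deepest red in BRAF V600E Bap1 KO replicates 1 and 2.

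GNA11 Q209L Bap1 KO tumours were set against BRAF V600E Bap1 KO tumours, which carry a different oncogene and the same Bap1 KO label. The samples also differed in cell-type markers. Of 10 melanocyte markers, 9 were called higher in GNA11 Q209L Bap1 KO, and all 10 were without overlap. Differences in oncogene and in cell content were not separated, and the part of either was not tested. Deubiquitinases moved in both directions. The endosomal metalloprotease Stambpl1 and the NF-kB inhibitor Tnfaip3 were lower in GNA11 Q209L Bap1 KO, by 16.8 and 3.49 times in mean CPM. Josd2, Usp5, Otud3, Usp11, Usp4 and Otub1 were higher, by 2.0 to 2.85 times. By edgeR's quasi-likelihood test with Benjamini-Hochberg adjustment over all genes, 19 of 65 members (29.2%) were called, against 41.2% of all genes tested, so the members' share was below the background. Of these, 7 were higher (all genes 16.5%) and 12 lower (all genes 24.7%), and the median log2 fold change was -0.23 over members and -0.26 over all genes. In 18 members the groups did not overlap (all genes 31.8%), 6 above (all genes 14.7%) and 12 below (all genes 17.2%).

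In tumour tissue, fewer cells of a type and less RNA per cell cannot be told apart. With BRAF V600E Bap1 KO replicates 2 and 4 left out together, 7 members were called, all lower (Stambpl1, Otud7a, Tnfaip3, Usp3, Usp15, Usp20 and Usp35), against 22% of all genes. None of the 7 higher members kept its call there, with log2 fold changes of 0.63 to 1.45 and edgeR adjusted p between 0.0634 and 0.176.

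**Figure D2:**
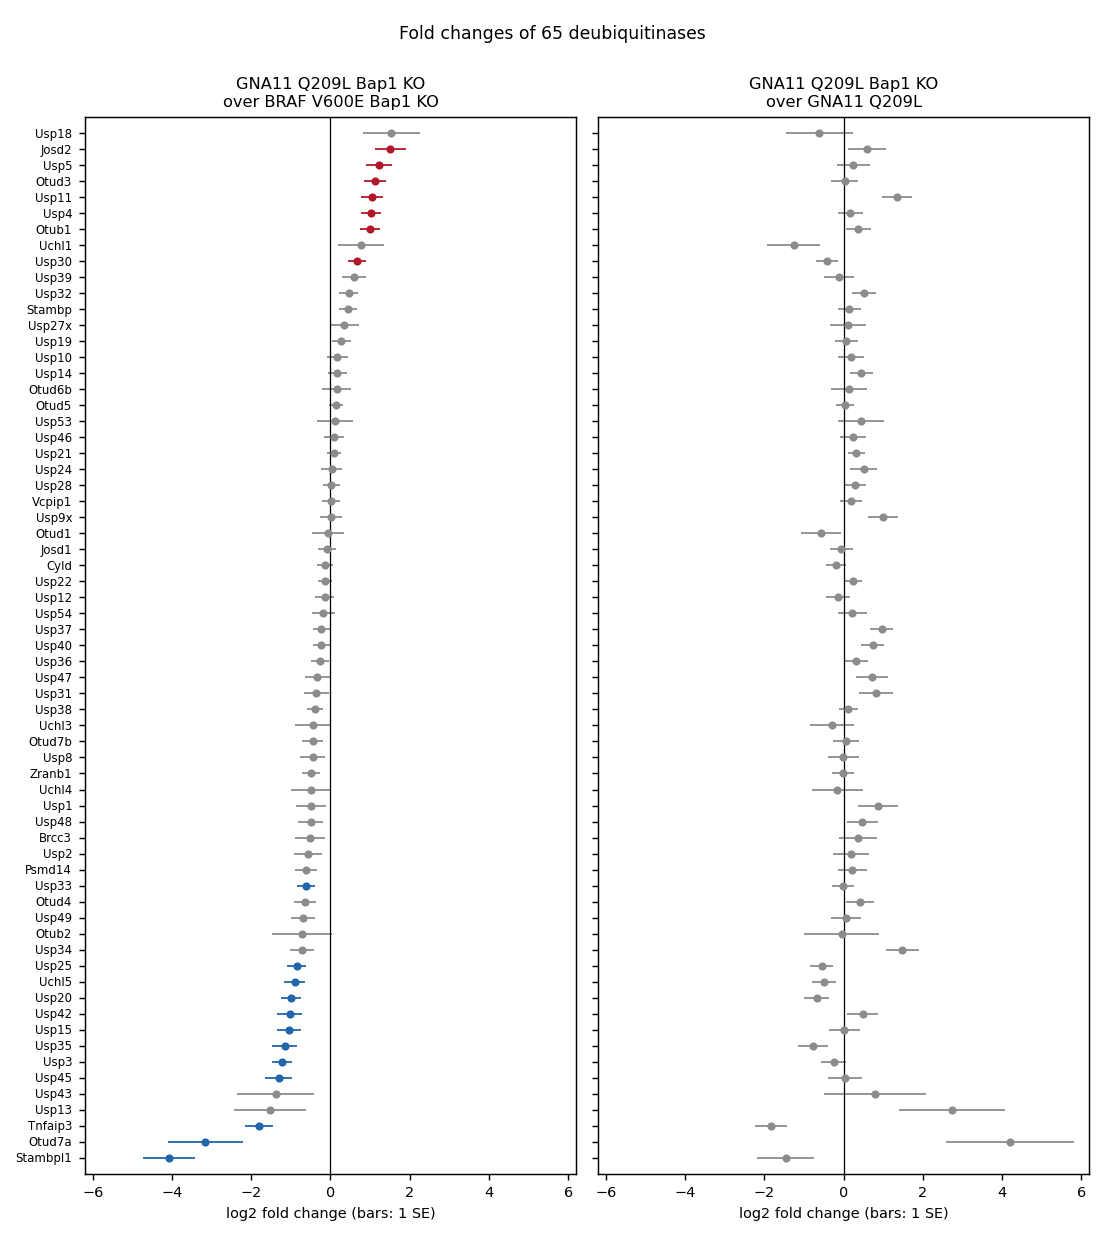
Points are edgeR log2 fold changes of 65 deubiquitinases with bars of 1 standard error, for GNA11 Q209L Bap1 KO over BRAF V600E Bap1 KO (left) and over GNA11 Q209L (right), in the row order of the left panel; red is called higher, blue called lower, grey not called. The left panel has 7 red and 12 blue points, from 1.51 for Josd2 to -4.07 for Stambpl1, and the right panel has none; both panels share the GNA11 Q209L Bap1 KO libraries.

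The largest fall was in an enzyme of endosomes. Of 5 members that act in endosomes or receptor sorting, 3 fell (Stambpl1, Usp20 and Usp33) and 2 were not called. Over all genes 24.7% were called lower in this comparison. Stambpl1, a protease for lysine 63 chains on endosomes, had 1.90, 2.16, 2.0, 2.05 and 1.83 CPM in GNA11 Q209L Bap1 KO tumours, against 56.1, 61.4, 9.92 and 5.90 CPM in BRAF V600E Bap1 KO tumours. The groups did not overlap, and within BRAF V600E Bap1 KO replicates 1 and 2 stood far above replicates 3 and 4. Its log2 fold change was -4.07 ± 0.66 (SE; edgeR adjusted p = 0.00173). It kept this call under all 23 alternatives, between -4.49 and -3.57.

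Usp20, which returns adrenergic receptors to the cell surface, had 11.1, 15.5, 13.3, 9.76 and 16.9 CPM in GNA11 Q209L Bap1 KO tumours, against 32.0, 19.4, 28.0 and 26.0 CPM in BRAF V600E Bap1 KO tumours. All 5 values lay below all 4, with a log2 fold change of -0.98 ± 0.25 (SE; edgeR adjusted p = 0.0126). Usp33, its close relative, lay between 34.3 and 61.1 CPM in GNA11 Q209L Bap1 KO tumours and between 66.4 and 78.5 CPM in BRAF V600E Bap1 KO tumours. Its log2 fold change of -0.62 ± 0.23 (SE) passed narrowly, at an edgeR adjusted p of 0.0494. The call was lost, at adjusted p between 0.0512 and 0.104, on leaving out any of GNA11 Q209L Bap1 KO replicates 1, 2, 3 and 5, any BRAF V600E Bap1 KO library or GNA11 Q209L replicate 2. The call of Usp33 was also lost with the libraries sharing an identifier summed (edgeR adjusted p = 0.0758). It was lost too with Xist as a covariate (edgeR adjusted p = 0.0836) and with no filter on low counts (0.0530). Usp8 and Stambp, which act on cargo at the same endosomes, were not called (log2 fold changes -0.45 ± 0.32 and 0.44 ± 0.24, SE).

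Among 5 members with roles in NF-kB and innate immune signalling, 2 fell (all genes 24.7%) and 3 were not called. Tnfaip3, known as A20, is induced by NF-kB and restrains it. It had 8.80, 7.35, 9.52, 5.09 and 7.62 CPM in GNA11 Q209L Bap1 KO tumours, against 27.8, 41.9, 19.7 and 17.8 CPM in BRAF V600E Bap1 KO tumours. Every GNA11 Q209L Bap1 KO library was below every BRAF V600E Bap1 KO library, with a log2 fold change of -1.80 ± 0.35 (SE; edgeR adjusted p = 0.00395), and the call held under all 23 alternatives. Macrophage markers moved with it: 4 of 10 were called lower, and they summed to between 213 and 1127 CPM in GNA11 Q209L Bap1 KO tumours and between 719 and 2943 CPM in BRAF V600E Bap1 KO tumours. In 1 library, GNA11 Q209L Bap1 KO replicate 5, 1 of the 10 was at 0. Markers of some other cell types were lower as well. Of 8 fibroblast markers, 7 were called lower. The 8 summed to 371 to 2271 CPM in GNA11 Q209L Bap1 KO tumours and 3138 to 18247 CPM in BRAF V600E Bap1 KO tumours. Of 10 T and NK cell markers 6 were called lower, at 8.73 to 22.2 CPM summed in GNA11 Q209L Bap1 KO tumours and 18.7 to 83.1 CPM in BRAF V600E Bap1 KO tumours. Both B and plasma cell markers that were tested, 2 of 6, were called lower, as were 4 of 10 keratinocyte and 9 of 9 tested muscle markers. Over all genes 24.7% were called lower. Of 10 melanocyte markers, 9 were called higher (all genes 16.5%). Of 8 endothelial markers, 1 was called higher and 0 lower, and 6 had log2 fold changes above 0 (median over the 8 of 0.15). The part of any of these cell types in the result was not tested.

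Usp25, which trims chains from TRAF adaptor proteins, lay between 30.2 and 49.4 CPM in GNA11 Q209L Bap1 KO tumours and between 64.1 and 80.7 CPM in BRAF V600E Bap1 KO tumours, without overlap. The log2 fold change came to -0.86 ± 0.24 (SE; edgeR adjusted p = 0.0161). Cyld, which removes linear and lysine 63 chains and restrains NF-kB, was not called, and its log2 fold change of -0.14 had a 95% interval of -0.60 to 0.32. Otud7b, known for cutting lysine 11 chains, was also not called at -0.45 ± 0.26 (SE).

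Usp18, an interferon-induced protease that removes the ubiquitin-like protein ISG15, spread most widely of these. It had 13.2, 50.5, 16.7, 30.5 and 1.81 CPM in GNA11 Q209L Bap1 KO tumours, against 5.33, 12.6, 3.83 and 9.27 CPM in BRAF V600E Bap1 KO tumours. The groups overlapped, and the log2 fold change of 1.54 had a 95% interval of -0.07 to 3.15 (edgeR adjusted p = 0.111). The 11 interferon response genes summed to 225, 441, 256, 461 and 131 CPM in the same 5 libraries and to 102, 388, 108 and 232 CPM in the same 4. In both genotypes the 2 libraries highest in Usp18 were the 2 highest in these genes, and no interferon gene of the list was called.

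Promoters of Tnfaip3 and Stambpl1 are shown for the letters they hold. Each runs from 250 bases before to 50 after the RefSeq start of the gene (GRCm38.p6), 5′ to 3′ on the gene's strand, with capitals marking matches on either strand to 7 motifs. These were the E-box CACGTG, the M-box TCATGTG, AP-1 TGANTCA, TEAD CATTCC, E2F TTTGGCGC and ETS CCGGAAG, and an NF-kB motif of 10 letters. The table has 2 starts of Tnfaip3 and 4 of Stambpl1, and the most upstream of each is shown. That of Tnfaip3 (chr10:19015361-19015660, minus strand) has, in order, an AP-1, an E-box and an NF-kB match. That of Stambpl1 (chr19:34191979-34192278, plus strand) has an E-box and then a TEAD match, and no 2 matches share a base. Of the starts not shown, 1 of Stambpl1 has a TEAD match, and the other 2 of Stambpl1 and the other 1 of Tnfaip3 have no match to any of the 7 motifs.
Tnfaip3: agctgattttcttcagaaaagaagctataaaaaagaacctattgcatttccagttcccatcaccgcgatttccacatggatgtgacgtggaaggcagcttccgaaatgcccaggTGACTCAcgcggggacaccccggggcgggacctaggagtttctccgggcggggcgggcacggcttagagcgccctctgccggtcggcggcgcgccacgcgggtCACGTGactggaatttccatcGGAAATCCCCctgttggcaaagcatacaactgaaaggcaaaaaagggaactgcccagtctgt
Stambpl1: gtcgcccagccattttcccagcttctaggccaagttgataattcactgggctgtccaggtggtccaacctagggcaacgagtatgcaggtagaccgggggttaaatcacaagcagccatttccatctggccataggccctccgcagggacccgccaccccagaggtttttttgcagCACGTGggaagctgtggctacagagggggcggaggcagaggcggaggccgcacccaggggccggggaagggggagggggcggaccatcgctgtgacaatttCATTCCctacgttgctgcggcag
NF-kB letters were found in 2 of the 14 promoters of 10 lower genes (at Tnfaip3 and Usp35), and in 4.79% of all 32851 promoters of this length. E-box letters stood in 7.15%, AP-1 letters in 7.81% and TEAD letters in 14.7% of all promoters. A match describes the sequence and is not evidence of binding.

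Of the 3 members bound to the proteasome, 1 fell (all genes 24.7%) and 2 were not called. Uchl5, which edits chains at the proteasome and also sits in a chromatin remodelling complex, had 15.5, 11.2, 12, 21.7 and 15.5 CPM in GNA11 Q209L Bap1 KO tumours, against 28.9, 25.4, 25.4 and 34.2 CPM in BRAF V600E Bap1 KO tumours. The groups did not overlap, with a log2 fold change of -0.91 ± 0.26 (SE; edgeR adjusted p = 0.0183). Usp14, the chain-trimming partner of the proteasome, lay between 63.5 and 88.8 CPM in GNA11 Q209L Bap1 KO tumours and between 45.1 and 92.3 CPM in BRAF V600E Bap1 KO tumours. Its log2 fold change of 0.18 had a 95% interval of -0.34 to 0.69. Psmd14, the lid subunit that removes chains as the substrate enters, lay between 33.3 and 65.7 CPM in GNA11 Q209L Bap1 KO tumours. In BRAF V600E Bap1 KO it had 96.6 and 97.8 CPM in replicates 1 and 2 but 49.6 and 53.4 CPM in replicates 3 and 4, and its log2 fold change of -0.61 was not called (95% interval -1.24 to 0.01).

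Of the 5 members that act on histones H2A or H2B, 1 fell (all genes 24.7%). Usp3, a histone H2A protease, had 21.7, 18.6, 28.8, 24.6 and 24.7 CPM in GNA11 Q209L Bap1 KO tumours, against 58.2, 83.7, 35.9 and 43.7 CPM in BRAF V600E Bap1 KO tumours. All 4 BRAF V600E Bap1 KO libraries were higher, replicate 2 most of all, with a log2 fold change of -1.23 ± 0.26 (SE; edgeR adjusted p = 0.00558). Usp22, the protease of the SAGA complex, was not called at -0.14, with a 95% interval of -0.54 to 0.26. Usp21, Usp27x and Usp49 were not called either, at 0.09, 0.35 and -0.70.

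Of the 10 members of DNA repair and replication, 2 rose (Usp11 and Otub1), 2 fell (Usp20 and Usp45) and 6 were not called. These counts were near the shares of all genes, 16.5% called higher and 24.7% lower. Usp11, an X-linked protease of homologous recombination, had 56.1, 45.2, 74.2, 46.8 and 64.4 CPM in GNA11 Q209L Bap1 KO tumours, against 17.5, 26.0, 44.2 and 23.8 CPM in BRAF V600E Bap1 KO tumours. The groups stood just apart, at 45.2 and 44.2 CPM, with a log2 fold change of 1.04 ± 0.28 (SE; edgeR adjusted p = 0.0154). Otub1 had 108, 197, 130, 101 and 175 CPM in GNA11 Q209L Bap1 KO tumours, against 85.6, 82.0, 62.5 and 54.3 CPM in BRAF V600E Bap1 KO tumours. It did not overlap either, with a log2 fold change of 1.00 ± 0.26 (SE; edgeR adjusted p = 0.0122).

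Usp45, which acts on the repair nuclease subunit ERCC1, lay between 8.23 and 17.9 CPM in GNA11 Q209L Bap1 KO tumours and between 23.9 and 42.7 CPM in BRAF V600E Bap1 KO tumours. The fitted log2 fold change was -1.31 ± 0.34 (SE; edgeR adjusted p = 0.0134). Usp1, the protease of FANCD2 and PCNA, was not called at -0.50, with a 95% interval of -1.33 to 0.33. Usp28, known for stabilising MYC and for p53 signalling, was not called at 0.02, with a 95% interval of -0.47 to 0.52.

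Of the 6 members placed at the endoplasmic reticulum, Golgi or mitochondria, Usp30 rose, Usp25 and Usp35 fell, and 3 were not called. Over all genes 16.5% were called higher and 24.7% lower. Usp30, an outer mitochondrial membrane protease that counters Parkin, had 28.6 to 44.3 CPM in GNA11 Q209L Bap1 KO tumours and 20.9 to 27.0 CPM in BRAF V600E Bap1 KO tumours. The ranges were close but separate, with a log2 fold change of 0.66 ± 0.23 (SE; edgeR adjusted p = 0.0403). The call was lost, at edgeR adjusted p between 0.0569 and 0.102, on leaving out certain single libraries. These were GNA11 Q209L Bap1 KO replicates 2, 3 and 5 and each BRAF V600E Bap1 KO library. The call was also lost with the libraries sharing an identifier summed (edgeR adjusted p = 0.0533). The same held with upper quartile scaling (edgeR adjusted p = 0.0562) and by limma voom (adjusted p = 0.0502). Usp35 had 6.46, 8.46, 8.60, 6.05 and 9.25 CPM in GNA11 Q209L Bap1 KO tumours, against 11.1, 16.8, 26.0 and 15.3 CPM in BRAF V600E Bap1 KO tumours. It did not overlap, with a log2 fold change of -1.15 ± 0.31 (SE; edgeR adjusted p = 0.0148).

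Of the 7 members listed as linked to melanoma or to p53, Usp5 rose (all genes 16.5%) and 6 were not called. Usp42, a p53 protease outside that list, was called lower and is given below. Usp5 had 240, 425, 276, 151 and 349 CPM in GNA11 Q209L Bap1 KO tumours, against 147, 110, 135 and 102 CPM in BRAF V600E Bap1 KO tumours. Its lowest GNA11 Q209L Bap1 KO library, replicate 4, stood next to BRAF V600E Bap1 KO replicate 1. The log2 fold change was 1.22 ± 0.34 (SE; edgeR adjusted p = 0.0163).

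Usp13, known for stabilising the melanocyte factor MITF, had 1.36, 0.940, 11.3, 2.09 and 0.968 CPM in GNA11 Q209L Bap1 KO tumours, against 4.25, 5.11, 2.93 and 26.0 CPM in BRAF V600E Bap1 KO tumours. A single library stood above the rest in each genotype, and the log2 fold change of -1.53 was not called (95% interval -3.51 to 0.45). The library high in Usp13 in each genotype was also the highest of its genotype in the 10 skeletal muscle markers, at 95.2 CPM summed in GNA11 Q209L Bap1 KO replicate 3 and 6784 CPM in BRAF V600E Bap1 KO replicate 4. Those markers summed to 3.42 to 9.57 CPM in the other GNA11 Q209L Bap1 KO libraries and 12.3 to 308 CPM in the other BRAF V600E Bap1 KO libraries, and their part in Usp13 was not tested. Usp9x, an X-linked protease with many substrates, was not called at 0.01, with a 95% interval of -0.62 to 0.64.

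Outside these groups, Josd2, Otud3 and Usp4 rose. Josd2 had 128, 167, 55.7, 123 and 117 CPM in GNA11 Q209L Bap1 KO tumours, against 29.0, 29.7, 57.8 and 49.4 CPM in BRAF V600E Bap1 KO tumours. Replicate 3 of GNA11 Q209L Bap1 KO fell inside the BRAF V600E Bap1 KO range, while the log2 fold change was the largest rise called, 1.51 ± 0.39 (SE; edgeR adjusted p = 0.0130). Otud3, an OTU protease, had 19.8, 23.3, 23.1, 23.0 and 22.5 CPM in GNA11 Q209L Bap1 KO tumours, against 12.9, 9.99, 6.58 and 11.8 CPM in BRAF V600E Bap1 KO tumours. Its 5 values were nearly level and all above the other 4, with a log2 fold change of 1.12 ± 0.28 (SE; edgeR adjusted p = 0.0117).

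Usp4, Usp11 and Usp15 are close paralogues, and they did not move alike. Usp4, which acts on TGF-beta receptors and splicing factors, had 162 to 273 CPM in GNA11 Q209L Bap1 KO tumours and 79.5 to 142 CPM in BRAF V600E Bap1 KO tumours, a log2 fold change of 1.02 ± 0.26 (SE; edgeR adjusted p = 0.0115). Usp15, which acts on receptor-regulated Smads, had 16.8 to 42.5 CPM in GNA11 Q209L Bap1 KO tumours and 50.9 to 90.7 CPM in BRAF V600E Bap1 KO tumours, a log2 fold change of -1.05 ± 0.31 (SE; edgeR adjusted p = 0.0226). Both gaps were free of overlap, and Usp15 lost its call without BRAF V600E Bap1 KO replicate 1 (-0.84, edgeR adjusted p = 0.0574). Reads shared between the paralogues, or with genes that overlap a member or lie antisense to it, cannot be told apart in the deposited counts.

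Usp42, a p53 protease, had 18.3, 13.3, 19.9, 21.0 and 16.9 CPM in GNA11 Q209L Bap1 KO tumours, against 54.7, 44.8, 23.2 and 23.3 CPM in BRAF V600E Bap1 KO tumours. Replicates 1 and 2 of BRAF V600E Bap1 KO carried most of the gap, while replicates 3 and 4 lay just above the GNA11 Q209L Bap1 KO range. The log2 fold change was -1.03 ± 0.31 (SE; edgeR adjusted p = 0.0226). The call was lost, at adjusted p between 0.0527 and 0.0623, without GNA11 Q209L Bap1 KO replicate 2 or 5 or BRAF V600E Bap1 KO replicate 1 or 2.

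Otud7a, an OTU protease known for expression in brain, was called lower but fell under the level at which members were named, and it was chosen after its values were seen. It had 0.597, 0.276, 0.433, 0.857 and 1.61 CPM in GNA11 Q209L Bap1 KO tumours, against 16.4, 8.52, 1.67 and 0.831 CPM in BRAF V600E Bap1 KO tumours. The groups overlapped, with BRAF V600E Bap1 KO replicates 1 and 2 apart from the rest, and the log2 fold change was -3.16 ± 0.95 (SE; edgeR adjusted p = 0.0231). Without GNA11 Q209L Bap1 KO replicate 2 or 3 or BRAF V600E Bap1 KO replicate 1, the edgeR adjusted p was 0.0578, 0.0538 and 0.0671. With the libraries sharing an identifier summed the edgeR adjusted p was 0.0527, and by limma voom the adjusted p was 0.0602. Of 8 neuron and nerve markers, 2 were called higher (all genes 16.5%) and 4 lower (all genes 24.7%). They summed to 205 to 744 CPM in GNA11 Q209L Bap1 KO tumours, where 1 to 3 of the 8 were at 0, and to 185 to 427 CPM in BRAF V600E Bap1 KO tumours, where 1 was at 0 in replicate 4 and 0 in the other libraries, and their part was not tested.

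**Figure D3:**
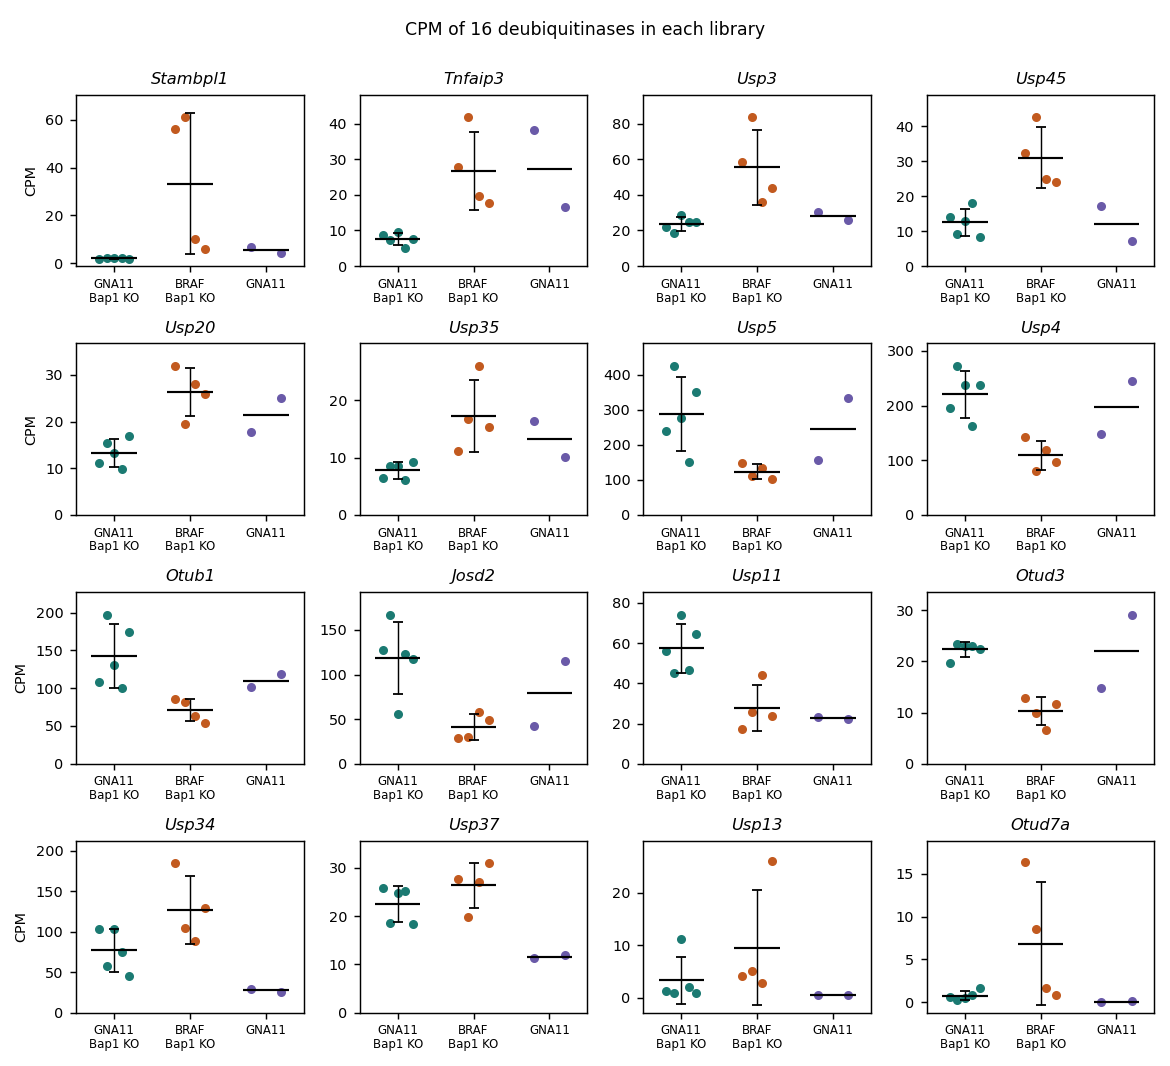
Points are CPM of 16 deubiquitinases in each library, for GNA11 Q209L Bap1 KO (left, 5 libraries), BRAF V600E Bap1 KO (middle, 4) and GNA11 Q209L (right, 2); lines are means, and bars are 1 SD where a genotype has more than 2 libraries. Tnfaip3 sits at 5.09 to 9.52 CPM in GNA11 Q209L Bap1 KO tumours, below every other library, while Usp11 sits at 45.2 to 74.2 CPM there, above every other library.

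The 7 higher members had a higher median GC content than the lower ones. Their median was 55.7%, against 46.2% for the 12 lower members, 47.9% for all 66 and 49.9% for all genes tested with a value. Usp11 at 48.8% and Usp4 at 51.0% stood near the median of all genes. The highest of all called members was Otud7a, a lower one, at 62.3%. The libraries differed in the same property: over the 65 members, Spearman's rho between GC content and log2 CPM relative to the other libraries was 0.001, 0.541, -0.071, -0.257 and 0.357 in GNA11 Q209L Bap1 KO. It was -0.293, -0.406, -0.211 and -0.357 in BRAF V600E Bap1 KO, and -0.286 and 0.572 in GNA11 Q209L. Over 12056 genes whose average log2 CPM was 2 or more it was 0.468 in GNA11 Q209L Bap1 KO replicate 2 and 0.409 in GNA11 Q209L replicate 2. These correlations run over genes of the same library, which are not independent, and are given as a description.

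With a GC offset per library, chosen after seeing the data, 19 members were again called in this comparison (all genes 40.2%). Of these 7 were higher and 12 lower, and 14 were the same. Otud3, Otub1, Usp30, Uchl5 and Usp33 lost their calls, at log2 fold changes of 0.59, 0.55, 0.30, -0.33 and -0.21 (edgeR adjusted p between 0.0541 and 0.284). Usp14, Usp32, Usp36, Usp49 and Vcpip1 gained one, Usp14 at 0.80 (edgeR adjusted p = 0.0398).

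**Figure D4:**
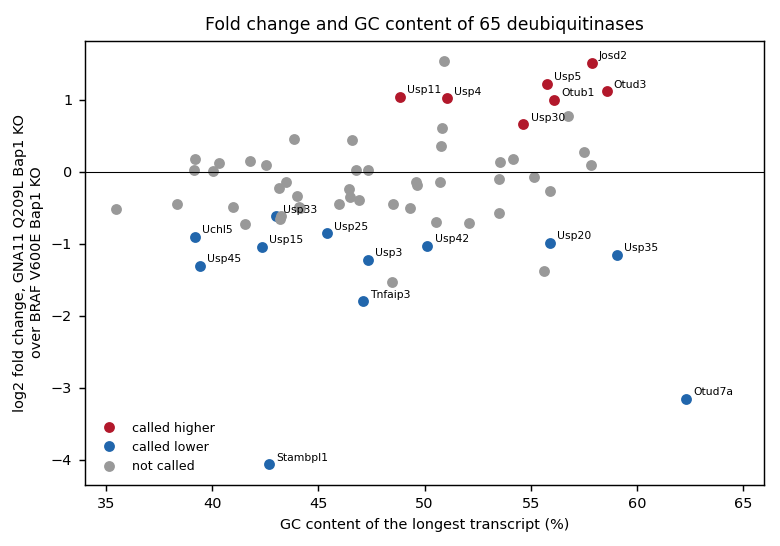
Each point is 1 of 65 deubiquitinases, with the GC content of its longest transcript in percent on the horizontal axis and its edgeR log2 fold change of GNA11 Q209L Bap1 KO over BRAF V600E Bap1 KO on the vertical axis; red is called higher, blue called lower, grey not called. The red points lie between 48.8 and 58.6% GC, and the blue points between 39.2 and 62.3%.

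Promoters of Josd2 and Otub1, 2 higher members with ETS letters, are shown in the same way and were chosen after their matches were seen. Otud3 and Usp4, which had larger fold changes than Otub1, have an E-box match each and no ETS match. The Josd2 promoter (chr7:44467730-44468029, plus strand) holds 1 ETS match. The Otub1 promoter (chr19:7206235-7206534, minus strand) holds, in order, 1 TEAD match and 2 ETS matches.
Josd2: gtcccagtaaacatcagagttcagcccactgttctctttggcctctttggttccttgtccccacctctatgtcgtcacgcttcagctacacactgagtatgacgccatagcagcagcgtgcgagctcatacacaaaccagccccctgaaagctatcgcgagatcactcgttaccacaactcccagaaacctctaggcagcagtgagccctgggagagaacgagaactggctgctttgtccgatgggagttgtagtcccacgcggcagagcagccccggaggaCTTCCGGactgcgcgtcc
Otub1: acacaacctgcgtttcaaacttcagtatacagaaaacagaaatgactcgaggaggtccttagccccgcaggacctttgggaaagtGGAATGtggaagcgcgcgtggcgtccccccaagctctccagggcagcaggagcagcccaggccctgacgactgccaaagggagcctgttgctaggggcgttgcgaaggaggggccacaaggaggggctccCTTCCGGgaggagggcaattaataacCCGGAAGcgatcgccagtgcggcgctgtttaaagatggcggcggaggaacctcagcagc
ETS letters were found in 4 of the 6 promoters of higher members (Josd2, Otub1, Usp11 and Usp30), in 0 of the 14 promoters of 10 lower genes, in 9 of 59 promoters of all members, and in 8.86% of all 32851 promoters. The M-box stood in 3.77% of all promoters and, among called members, at Usp30. E2F letters stood in 0.514% of all promoters and in none of the members' 59. RefSeq promoters were found for 52 of the 66 members and 16 of the 19 called.

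Some members set BRAF V600E Bap1 KO libraries apart from one another without a call between the genotypes. They were chosen after their values were seen. Otub2, a relative of Otub1, had 1.58 and 3.07 CPM in replicates 1 and 2 but 16.5 and 42.3 CPM in replicates 3 and 4. Usp43 had 0.202 and 0.204 CPM in replicates 1 and 2 but 2.30 and 10.2 CPM in replicates 3 and 4, and Uchl3, a hydrolase of small ubiquitin adducts, had 5.52, 6.61, 14.8 and 17.1 CPM. Replicates 3 and 4 are also those with the most keratinocyte markers. In GNA11 Q209L Bap1 KO these 3 genes lay between 5.92 and 12.7, between 0.757 and 1.63, and between 4.04 and 12.2 CPM, and their log2 fold changes of -0.71, -1.38 and -0.45 were not called. Uchl1, the neuronal hydrolase, lay between 12.7 and 23.7 CPM in GNA11 Q209L Bap1 KO tumours and between 2.04 and 17.1 CPM in BRAF V600E Bap1 KO tumours. Its log2 fold change of 0.77 was not called (95% interval -0.51 to 2.05).

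Other genes of the ubiquitin pathway also moved both ways in GNA11 Q209L Bap1 KO tumours relative to BRAF V600E Bap1 KO tumours, where 16.5% of all genes were called higher and 24.7% lower. Of 9 ubiquitin genes and E1 enzymes, 3 rose and 3 fell, with Ubb, a polyubiquitin gene, averaging 198 ± 53.7 CPM across the GNA11 Q209L Bap1 KO tumours (SD, n = 5) and 90.9 ± 10.1 CPM across the BRAF V600E Bap1 KO tumours (SD, n = 4; log2 fold change 1.13, edgeR adjusted p = 0.00462). Uba3, the catalytic subunit of the NEDD8 E1, fell (-1.35, edgeR adjusted p = 0.0110), as did Rps27a, a ubiquitin and ribosomal protein fusion gene with many processed copies (-1.60, edgeR adjusted p = 0.00900). Of 31 E2 enzymes, 8 rose and 2 fell. The most significant were Ube2e2, Ube2l3 and Ube2l6, the E2 for ISG15, at log2 fold changes of 1.39, 1.17 and 2.49 (edgeR adjusted p = 0.00531, 0.00594 and 0.00620).

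Of 18 partners of deubiquitinases, 3 rose and 5 fell. Bre, which binds Brcc3 in the BRCA1-A and BRISC complexes, averaged 76.7 ± 27.2 CPM across the GNA11 Q209L Bap1 KO tumours (SD, n = 5) and 18.9 ± 2.69 CPM across the BRAF V600E Bap1 KO tumours (SD, n = 4; log2 fold change 2.02, edgeR adjusted p = 0.000899). Uimc1, the chain reader of the BRCA1-A complex, fell by 1.93 on the log2 scale (edgeR adjusted p = 0.00429), while Brcc3 itself was not called at -0.52 ± 0.37 (SE). Stam2, the endosomal partner of Usp8 and Stambp, rose by 0.91 on the log2 scale (edgeR adjusted p = 0.00567). Of 19 ubiquitin and SUMO proteases outside the rule, 3 rose and 5 fell: Fam63b and Fam188a, of the MINDY family, rose by 2.07 and 1.91 and Yod1, an OTU protease, fell by 1.91 on the log2 scale (edgeR adjusted p = 0.000559, 0.00202 and 0.00514).

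Tumours of GNA11 Q209L Bap1 KO and of GNA11 Q209L carry the same oncogene and differ by the Bap1 KO label. Levels of Xist, a marker of the inactive X chromosome, differed as well. Usp34, Usp11, Usp37 and Usp9x had higher means in GNA11 Q209L Bap1 KO, by 1.94 to 2.79 times, and Tnfaip3 a lower one, by 3.56 times, but no member passed the test. By edgeR's quasi-likelihood test 0 of 65 members were called, against 0.0288% of all genes (5 of 17350, of which 1, or 0.00576%, was higher and 4, or 0.0231%, lower). DESeq2 called 4 members (Tnfaip3, Usp11, Usp34 and Usp37), against 443 of all genes (2.61%), and limma voom called 0, against 0.0288% of all genes. At an unadjusted p under 0.05 there were 8 members, against 11.4% of all genes, and 14 members did not overlap between the groups (all genes 16.6%), 10 above (all genes 7.58%) and 4 below (all genes 9.01%). The median log2 fold change was 0.17 over members and -0.00 over all genes, with 44 of 65 above 0. With 2 libraries of GNA11 Q209L the intervals are wide, and this comparison shares the GNA11 Q209L Bap1 KO libraries with the one before. Xist stood at 358 and 198 CPM in GNA11 Q209L tumours. For GNA11 Q209L Bap1 KO it was 695 CPM in replicate 3 but 0.428 to 1.42 CPM in replicates 1, 2, 4 and 5. Xist and the Bap1 label thus ran nearly together, and their parts were not separated. Adding Xist as a covariate left 0 of all genes called by edgeR.

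Tnfaip3 had 5.09 to 9.52 CPM in GNA11 Q209L Bap1 KO tumours, against 38.2 and 16.5 CPM in GNA11 Q209L tumours. The groups did not overlap, and replicate 1 of GNA11 Q209L was the higher. The log2 fold change was -1.83 ± 0.41 (SE; unadjusted p = 0.000954, edgeR adjusted p = 0.164), and -1.11 without that library. Macrophage markers summed to 213 to 1127 CPM in GNA11 Q209L Bap1 KO tumours, against 6645 and 771 CPM in GNA11 Q209L tumours, and fibroblast markers to 371 to 2271 CPM, against 11332 and 2876 CPM. All 10 macrophage and 7 of 8 fibroblast markers had log2 fold changes below 0 and none was called. At an unadjusted edgeR p under 0.05 there were 4 macrophage and 7 fibroblast markers (all genes 11.4%). The part of these cell types in the values of Tnfaip3 was not tested.

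Usp34, a large protease that acts on Axin in Wnt signalling, had 103, 57.6, 104, 75 and 44.8 CPM in GNA11 Q209L Bap1 KO tumours, against 29.5 and 25.6 CPM in GNA11 Q209L tumours. Its log2 fold change was 1.48 ± 0.41 (SE; unadjusted p = 0.00426, edgeR adjusted p = 0.249). Usp11 had 45.2 to 74.2 CPM in GNA11 Q209L Bap1 KO tumours, against 23.3 and 22.1 CPM in GNA11 Q209L tumours. It was the only one of these whose GNA11 Q209L Bap1 KO values all lay above those of both other genotypes, with a log2 fold change here of 1.34 ± 0.37 (SE; unadjusted p = 0.00426, edgeR adjusted p = 0.249).

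Usp37, which stabilises cyclin A, had 25.8, 18.6, 24.8, 25.1 and 18.3 CPM in GNA11 Q209L Bap1 KO tumours, against 11.3 and 11.9 CPM in GNA11 Q209L tumours. The 2 groups were well apart, with a log2 fold change of 0.96 ± 0.29 (SE; unadjusted p = 0.00692, edgeR adjusted p = 0.272). All 12 proliferation markers had log2 fold changes above 0, 6 of them without overlap (all genes 7.58% above) and none called (all genes 0.0288%). At an unadjusted edgeR p under 0.05 there were 10 of the 12 (all genes 11.4%). The 12 markers summed to 290 to 827 CPM in GNA11 Q209L Bap1 KO tumours, against 140 and 239 CPM in GNA11 Q209L tumours. Their part was not tested.

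Usp9x had 120, 77.8, 161, 93.7 and 69.5 CPM in GNA11 Q209L Bap1 KO tumours, against 51.3 and 53.2 CPM in GNA11 Q209L tumours. The highest value was that of replicate 3, the only library of its genotype high in Xist, which coats the inactive X chromosome (695 CPM, against 0.428 to 1.42 CPM in the other 4). Both GNA11 Q209L libraries were high in Xist as well. The log2 fold change was 1.00 ± 0.38 (SE; unadjusted p = 0.0224, edgeR adjusted p = 0.359), and 1.2 with Xist as a covariate. Usp40 had 36.3, 21.7, 38.2, 35.0 and 28.1 CPM in GNA11 Q209L Bap1 KO tumours, against 22.3 and 16.1 CPM in GNA11 Q209L tumours, and Usp13 had 0.497 and 0.491 CPM in GNA11 Q209L tumours. Their log2 fold changes were 0.73 ± 0.28 and 2.74 ± 1.33 (SE; edgeR adjusted p = 0.369 and 0.478), and that of Usp13 was 1.41 without GNA11 Q209L Bap1 KO replicate 3.

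The other members of smallest p had lower means in GNA11 Q209L Bap1 KO. Stambpl1 had 1.83 to 2.16 CPM there, against 6.59 and 4.37 CPM in GNA11 Q209L tumours, without overlap (log2 fold change -1.46 ± 0.72, SE; edgeR adjusted p = 0.482). Usp20 and Usp35 also lay below both GNA11 Q209L libraries, which had 17.7 and 25.1 CPM of Usp20 and 16.4 and 10.1 CPM of Usp35 (log2 fold changes -0.69 ± 0.31 and -0.77 ± 0.37, SE; edgeR adjusted p = 0.438 and 0.478). Usp25 and Uchl1 overlapped, with 80.4 and 38.6 CPM of Usp25 and 14.4 and 69.0 CPM of Uchl1 in GNA11 Q209L (log2 fold changes -0.55 ± 0.29 and -1.27 ± 0.68, SE; edgeR adjusted p = 0.512 and 0.527). Both turned direction when 1 GNA11 Q209L library was left out, Usp25 to 0.07 without replicate 1 and Uchl1 to 0.34 without replicate 2.

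Otud7a had 0 and 2 counts in GNA11 Q209L. Its mean of 0.754 CPM in GNA11 Q209L Bap1 KO tumours was 22.9 times those 2 counts pooled. The interval from counting error alone was 6.33 to 189, and it leaves out the spread between libraries. Otud7a was not called, at a log2 fold change of 4.19 ± 1.61 (SE, edgeR unadjusted p = 0.0248, edgeR adjusted p = 0.366). Other key members were not called, and the 95% intervals of their log2 fold changes were -0.21 to 1.10 for Usp14, -0.58 to 1.01 for Psmd14, -1.19 to 0.20 for Uchl5 and -0.75 to 0.38 for Cyld. They were -0.33 to 1.07 for Otub1, -0.28 to 0.73 for Usp22, -0.34 to 0.91 for Usp28 and -0.23 to 1.95 for Usp1. Uchl3 and Usp18 had wider intervals, -1.52 to 0.93 and -2.49 to 1.26. None of 9 ubiquitin and E1 genes, 31 E2 enzymes, 18 partners and 19 other proteases was called by edgeR here, and 1, 1, 0 and 1 of them had an unadjusted p under 0.05.

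The comparison of BRAF V600E Bap1 KO with GNA11 Q209L changes the oncogene and the Bap1 label together. Cell-type markers differed as well, with 9 of 10 melanocyte markers called lower in BRAF V600E Bap1 KO. Usp34, Usp42, Usp37 and Otud7a were higher in BRAF V600E Bap1 KO and Usp30 was lower. These were the 5 of 65 members called by edgeR's quasi-likelihood test, against 15.2% of all genes, with 5.93% of all genes called higher and 9.27% lower. At an unadjusted p under 0.05 there were 22 members (all genes 36.5%), and 24 did not overlap, 18 above and 6 below (all genes 41.9% in all, 22.9% above and 19% below). Usp34 had 185, 104, 88.5 and 129 CPM in BRAF V600E Bap1 KO tumours, against 29.5 and 25.6 CPM in GNA11 Q209L tumours. The groups were far apart, and the log2 fold change was 2.20 ± 0.44 (SE; edgeR adjusted p = 0.0130).

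Usp37 had 27.7, 19.8, 27.1 and 30.9 CPM in BRAF V600E Bap1 KO tumours, against 11.3 and 11.9 CPM in GNA11 Q209L tumours, a log2 fold change of 1.19 ± 0.30 (SE; edgeR adjusted p = 0.0292). Usp42 had 54.7, 44.8, 23.2 and 23.3 CPM in BRAF V600E Bap1 KO tumours, against 15.3 and 10.3 CPM in GNA11 Q209L tumours, a log2 fold change of 1.51 ± 0.43 (SE; edgeR adjusted p = 0.0409). Usp30 had 20.9 to 27.0 CPM in BRAF V600E Bap1 KO tumours, against 38.0 and 64.1 CPM in GNA11 Q209L tumours, a log2 fold change of -1.09 ± 0.28 (SE; edgeR adjusted p = 0.0322). None of the 3 overlapped. The mean of Otud7a in BRAF V600E Bap1 KO was 208 times the 2 counts of GNA11 Q209L, with an interval from counting error of 57.5 to 1716 (edgeR adjusted p = 0.0282).

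These calls changed with the libraries and the settings used. Without GNA11 Q209L replicate 1 or 2 that genotype has 1 library, so only log2 fold changes are given. Without replicate 2 they were 2.1007 for Usp34, 1.2219 for Usp37, 1.2563 for Usp42, -0.667 for Usp30 and 10.8616 for Otud7a. Without replicate 1 they were 2.303 for Usp34, 1.1423 for Usp37, 1.8196 for Usp42 and 6.2043 for Otud7a. Usp30 lay between -1.4276 and -0.667 on leaving out any 1 library. Usp42 lost its call on leaving out any of GNA11 Q209L Bap1 KO replicates 1, 3, 4 and 5. It was lost too without BRAF V600E Bap1 KO replicate 1 or 2. Across these the edgeR adjusted p of Usp42 was between 0.0519 and 0.0693. Usp30 lost its call without BRAF V600E Bap1 KO replicate 4 (edgeR adjusted p = 0.0569). Without BRAF V600E Bap1 KO replicates 2 and 4 together 2 members were called, against 5.16% of all genes. With the GC offset, Usp37 stood at 0.75 and Usp30 at -0.59 on the log2 scale and neither was called (edgeR adjusted p = 0.0944 and 0.111), while Usp36 and Usp40 were.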

How the data were processed

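The authors deposited 1 table of estimated counts per gene for the 11 libraries, with no normalization. The submitters' processing notes name STAR and mm9, and give no version. How counts were made, from which annotation and whether by strand, is not stated in the material at hand. The values are whole numbers, so rounding the expected counts changed nothing. Replicate numbers follow accession order and pair nothing. Of 18769 lines, 7 repeats and 6 transgene sequences were dropped.

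A single fit over the 11 libraries, with no term besides genotype, was made in edgeR 4.0.16 (R 4.3.3; TMM scaling, default expression filter by genotype, 17350 genes, two-sided quasi-likelihood test, Benjamini-Hochberg adjustment over all genes, threshold 0.05). An SE is the size of the fold change over the square root of F. DESeq2 1.42.0 and limma 3.58.1 (voom) were alternatives, with other scalings and filters, Xist as a covariate, each library left out, libraries sharing an identifier summed, and a GC offset. The edgeR fit as reported was run on simulated counts, for the comparisons of GNA11 Q209L Bap1 KO tumours with each other genotype. The simulated spread between libraries was smaller than in the data, and the alternatives were not simulated. CPM per kb used union exon lengths, and GC content the longest transcript, of GENCODE. Promoters are from RefSeq, GRCm38.p6, a build other than that of the files, and no position was taken from the counts. A count of 3, taken as the floor, is 0.0337 to 0.166 CPM in a library, and counting intervals cover counting error alone.

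Named members of the first comparison (both Bap1 KO genotypes) were up to 12 called each way at an average log2 CPM of 2 or more, and of the third (BRAF V600E Bap1 KO tumours over GNA11 Q209L tumours) up to 5 each way. For GNA11 Q209L Bap1 KO tumours over GNA11 Q209L tumours they were those called and the 6 each way of smallest p, and 14 key members were given whatever their p. The members, lists and rule were chosen with earlier results of these data known.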

Additional observations from a re-analysis of the deposited data

Results flagged for a closer look

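In 6 of 132 pairs of a member and a genotype with 4 or 5 libraries, 1 library lay far from the rest by Dixon's test; chance flags about 1 in 20. In GNA11 Q209L Bap1 KO, Otud1 stood at 39.1 CPM in replicate 4, against 16.9 to 20.4 CPM in the other 4. Otud3 was lowest in replicate 1 of that genotype, at 19.8 CPM, against 22.5 to 23.3 CPM in the others. Usp13 and Usp54 were highest in its replicate 3, Usp13 at 11.3 CPM (0.940 to 2.09 CPM in the others) and Usp54 at 47.0 CPM (19.7 to 26.8 CPM in the others). In BRAF V600E Bap1 KO, Otud4 stood at 202 CPM in replicate 1, against 98.0 to 106 CPM, and Usp13 at 26.0 CPM in replicate 4, against 2.93 to 5.11 CPM.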

How the results depend on the processing

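No paired analysis was possible because the labels give the genotypes no shared replicate numbers. Counts below are for alternatives run with both GNA11 Q209L libraries. For GNA11 Q209L Bap1 KO over BRAF V600E Bap1 KO tumours the count of members called stayed within 1.5 times 19 under every alternative but 1. That 1 left out BRAF V600E Bap1 KO replicates 2 and 4 together and gave 7 (all genes 22%). It was added after seeing the data. Leaving out 1 library of a Bap1 KO genotype gave 14 to 19 members (all genes 31.4 to 41.8%). With the libraries sharing an identifier summed, 16 members were called (all genes 35.2%). For GNA11 Q209L Bap1 KO over GNA11 Q209L tumours the count of members called was 4 by DESeq2 (all genes 2.61%). It was 0 under all others run with both GNA11 Q209L libraries (all genes 0 to 0.422%). For BRAF V600E Bap1 KO over GNA11 Q209L tumours it was 9 with library totals alone (all genes 14.2%), 17 by DESeq2 (32%) and 3 by limma voom (15%). It was 0 with the 2 genotypes alone (2.45%), 1 with Xist as a covariate (6.87%) and 2 without BRAF V600E Bap1 KO replicates 2 and 4 (5.16%). Leaving out 1 library of a Bap1 KO genotype gave 4 to 7 (10.2 to 16.7%). The cause was not tested. Scaling by library totals alone gave a median log2 fold change of all genes of -0.64, against -0.26 as reported, for GNA11 Q209L Bap1 KO over BRAF V600E Bap1 KO tumours, and of 0.66, against 0.23, for BRAF V600E Bap1 KO over GNA11 Q209L tumours. In the first of these, 24 members were then called (all genes 43.1%), 15 of them as before. Otub1, Usp11, Usp30 and Usp5 lost their calls.

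The members whose direction turned were not called as reported. For GNA11 Q209L Bap1 KO over BRAF V600E Bap1 KO tumours, Usp9x went to -0.0028 with upper quartile scaling, -0.3141 with library totals, -0.0123 with at least 10 counts in every library of a genotype, -0.021 with the 2 genotypes alone and -0.0882 without BRAF V600E Bap1 KO replicates 2 and 4, and ran from -0.1365 to 0.2074 on leaving out 1 library. Usp28 went to -0.0018, -0.3336, -0.0015, -0.0104 and -0.0572 under the same 5 and to -0.002 with Xist as a covariate, and ran from -0.0894 to 0.1571 on leaving out 1 library. Usp14 went to -0.1973 with library totals, Cyld to 0.0123 without BRAF V600E Bap1 KO replicates 2 and 4 and to 0.2525 with the GC offset, and Uchl3 to 0.1151 with the GC offset. For GNA11 Q209L Bap1 KO over GNA11 Q209L tumours, leaving out 1 library gave log2 fold changes of -0.9301 to 0.0694 for Usp25 (-0.55 as reported), -1.9936 to 0.3414 for Uchl1 (-1.27 as reported), -0.6012 to 0.1745 for Uchl3 and -0.0303 to 0.5988 for Usp22.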
